A study of Homo sapiens with 6 samples.

Results

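Epithelial cells are held in their state by a small set of regulators that act on transcription and on splicing. Here 10 such genes were followed in human embryonic stem cells that enter mesoderm with or without SNAI1. The genes were chosen by symbol, with earlier results of these data known. They were the splicing regulators ESRP1, ESRP2 and RBM47, the grainyhead transcription factors GRHL1, GRHL2 and GRHL3, the zinc-finger repressors OVOL1 and OVOL2, the ETS factor ELF3 and the Krüppel-like factor KLF5. All 10 were listed once in both deposited tables, among 37803 symbols of that kind. RNA-seq was performed on H1, a human embryonic stem cell line, at day 2 of hematopoietic differentiation. All groups were grown in Custom mTeSR1 medium with activin A (40 ng/ml) and BMP4 (50 ng/ml) per the labels; the methods of the study exchange these doses, and which is right is not known. The groups were H1 without deletion (WT, n = 2) and H1 with SNAI1 deletion, whose titles carry a pair of leading numbers (SNAI1_KO_1 and SNAI1_KO_2, with 2 libraries per group). What the leading number stands for is not given. The study describes a pair of CRISPR/Cas9 knockout lines with frameshift mutations for SNAI1, so the leading numbers may stand for these lines, but no source used here says so.

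ESRP1 and ESRP2 are RNA-binding proteins that promote the epithelial exon choice in transcripts such as FGFR2, CD44, CTNND1 and ENAH, and RBM47 is an RNA-binding protein that acts on splicing and mRNA stability. Grainyhead factors bind and activate genes of cell junctions such as E-cadherin and claudins, and OVOL factors repress mesenchymal genes, among them ZEB1. ELF3 and KLF5 are transcription factors of epithelial tissues, and KLF5 also has a known role in the self-renewal of pluripotent cells. SNAI1 is a zinc-finger repressor of epithelial genes that binds E-boxes of the letters CAGGTG. During gastrulation it takes part in the epithelial-mesenchymal transition (EMT) by which cells leave the epiblast and form mesoderm.

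Because SNAI1 recognizes these letters, the 250 bases before each annotated start were searched for CAGGTG and its reverse complement CACCTG on RefSeq sequence (GRCh38.p14). The files were made on another build, hg19, so these positions describe the reference sequence and not the reads. Of the 10 genes, 5 had a promoter in the table (RBM47, GRHL1, GRHL3, ELF3 and KLF5), with 10 windows in all. ESRP1, ESRP2, GRHL2, OVOL1 and OVOL2 were not in it. The letters occurred in 3 of the 10 windows, once in each, against 17.5% of all 35116 windows. These 3 windows are shown because they hold the match, in the direction of the gene, with capitals marking the matching letters. They lie at chr4:40514582-40514831 on the minus strand (RBM47, 1 of 4 annotated starts), chr1:24319107-24319356 on the plus strand (GRHL3, 1 of 2 annotated starts) and chr1:202010337-202010586 on the plus strand (ELF3).
RBM47: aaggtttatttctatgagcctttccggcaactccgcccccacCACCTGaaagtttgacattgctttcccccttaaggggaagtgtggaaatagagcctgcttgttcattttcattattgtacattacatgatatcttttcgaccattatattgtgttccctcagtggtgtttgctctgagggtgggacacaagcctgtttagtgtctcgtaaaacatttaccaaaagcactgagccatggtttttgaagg
GRHL3: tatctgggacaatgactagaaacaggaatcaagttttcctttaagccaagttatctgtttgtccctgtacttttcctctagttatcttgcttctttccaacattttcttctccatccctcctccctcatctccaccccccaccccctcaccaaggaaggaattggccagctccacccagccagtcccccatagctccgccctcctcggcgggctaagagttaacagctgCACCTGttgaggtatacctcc
ELF3: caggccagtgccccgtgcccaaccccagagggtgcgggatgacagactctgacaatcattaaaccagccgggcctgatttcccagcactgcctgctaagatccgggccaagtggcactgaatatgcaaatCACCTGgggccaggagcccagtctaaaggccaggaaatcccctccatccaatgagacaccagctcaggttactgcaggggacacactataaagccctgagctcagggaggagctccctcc
The match began 208 bases before the start for RBM47, 21 for GRHL3 and 120 for ELF3. The wider E-box CANNTG, which includes these letters, was in 7 of the 10 windows and in 61.8% of all windows. The grainyhead motif AACCGGTT was in 0 of the 10 windows and in 0.117% of all. The GC box GGGCGG (reverse complement CCGCCC), bound by factors of the KLF and SP kind, was in 6 of the 10 windows and in 42.6% of all. A match is a description of letters and says nothing about binding in these cells.

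The values were FPKM (inferred for the first table), fragments scaled to transcript length and to the mapped fragments of the library, so levels of different genes can be set side by side per length. Each of the 2 tables held 1 library of every group and was normalized on its own. FPKM summed to between 603399 and 633851 per library, between 13553 and 14063 symbols had an FPKM of at least 1, and depth relative to the WT library of the table was estimated at 0.878 to 1.11. Absolute depth is unknown. The methods of the study state in general that experiments were independent and repeated, in a number above the 2 libraries per group held here. The labels do not say that these libraries came from separate cultures, so p-values measure only the spread between them, which may be technical. SNAI1 mRNA was 37.1 and 36.4 FPKM in WT, 51.6 and 47.8 for the label SNAI1_KO_1, and 68.6 and 55.0 for the label SNAI1_KO_2. It was thus higher in the libraries labelled as deleted, and its level does not check the labels, since a frameshift can leave the transcript in place. Mesoderm markers APLNR, MIXL1, EOMES and MESP1 were expressed in every library, and all 8 markers of that list that were found reached 1 FPKM in at least 1 library. In these bulk samples, a change in the number of cells of a type and a change in RNA per cell cannot be told apart.

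To ask whether the epithelial regulators differ between SNAI1-deleted and WT cells, both knockout groups were set against WT in a limma fit over 13909 genes on log2(FPKM + 1), with the table as a term. Of the 10 genes, 9 rose and 0 fell at a Benjamini-Hochberg adjusted p under 0.05. Over all genes, 31.3% passed, 15.8% higher and 15.4% lower. The 10 genes were chosen with earlier results of these data known, so the counts set beside all genes are descriptions. The median log2 difference of the 10 genes was 1.23, beside -0.05 over all genes tested. In 9 of the 10 genes all 4 knockout libraries lay above both WT libraries, which held for 16.9% of all genes. In the same 9 genes each knockout library was above the WT library of its table, as it was for 26.2% of all genes. GRHL1 was the exception in all these counts. All 10 passed the filter of a mean FPKM of at least 1, but GRHL1, GRHL3 and OVOL1 had a mean under 1 in WT and passed it through the knockout libraries. For genes as low as these, the added 1 makes the log2 difference smaller than the change in FPKM.

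**Figure D1:**
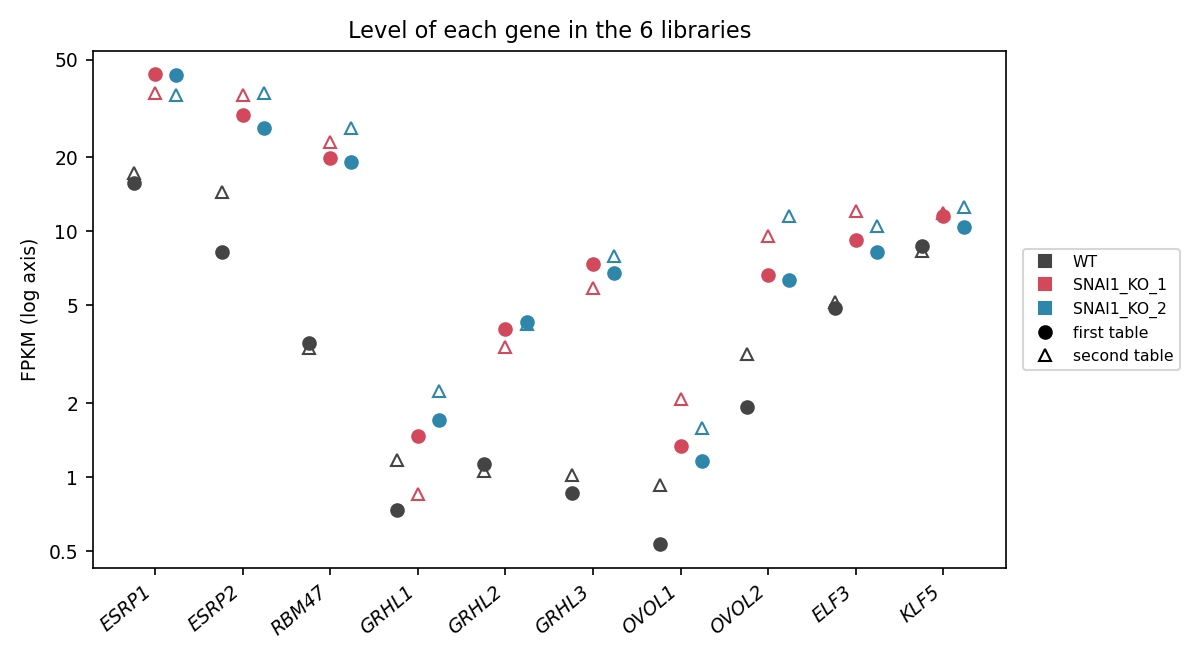
FPKM (log axis) of the 10 genes in each of the 6 libraries, colored by group, with filled circles for the first table and open triangles for the second. In every gene but GRHL1 the 4 knockout libraries lie above both WT libraries.

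The paralogs ESRP1 and ESRP2 were the most abundant of the 10 genes. ESRP1 was 15.7 FPKM in WT of the first table and 17.2 in WT of the second. It was 43.6 and 36.5 in SNAI1_KO_1 and 43.4 and 35.9 in SNAI1_KO_2, in the same order of tables. The groups did not overlap, and the lowest knockout library was 2.08 times the WT library of its table. The log2 difference was 1.22 ± 0.10 (SE; limma, adjusted p = 0.00117). ESRP2 was 8.25 and 14.4 FPKM in WT, 29.9 and 35.9 in SNAI1_KO_1 and 26.4 and 36.6 in SNAI1_KO_2. The WT libraries of ESRP2 were further apart than those of ESRP1, and the second table was higher in every group. ESRP2 rose by a difference of 1.46 ± 0.11 on the log2 scale (limma, adjusted p = 0.000863).

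RBM47 had the largest log2 difference of the 10 genes. It was 3.52 and 3.36 FPKM in WT, 19.8 and 23.2 in SNAI1_KO_1 and 19.2 and 26.4 in SNAI1_KO_2. WT libraries differed by little, and each knockout library was between 5.46 and 7.87 times the WT library of its table. The log2 difference was 2.37 ± 0.12 (limma, adjusted p = 0.000308), which placed it at rank 68 from the top of 13909 genes. RBM47 thereby moved from the fifth place among the 10 levels in WT to the third in the knockout libraries, behind ESRP1 and ESRP2.

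Of the 3 grainyhead factors, GRHL2 and GRHL3 rose and GRHL1 did not pass. Their WT levels were 1.09 ± 0.049 FPKM (SD, n = 2) for GRHL2, 0.952 ± 0.31 for GRHL1 and 0.940 ± 0.12 for GRHL3. GRHL3, known for its part in skin barrier formation and neural tube closure, was 0.858 and 1.02 FPKM in WT. It was 7.39 and 5.90 in SNAI1_KO_1 and 6.76 and 7.92 in SNAI1_KO_2. Each knockout library was 5.77 to 8.62 times its WT library, and the log2 difference was 2.04 ± 0.14 (limma, adjusted p = 0.000720). GRHL2, an activator of E-cadherin and claudin genes, was 1.13 and 1.06 FPKM in WT, 3.997 and 3.37 in SNAI1_KO_1 and 4.28 and 4.18 in SNAI1_KO_2. GRHL2 rose by a difference of 1.24 ± 0.12 on the log2 scale (limma, adjusted p = 0.00175), and its 2 WT libraries were close together.

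GRHL1, the paralog of GRHL2 and GRHL3, did not pass. Its level was 0.735 and 1.17 FPKM in WT, 1.46 and 0.854 in SNAI1_KO_1 and 1.71 and 2.24 in SNAI1_KO_2. The SNAI1_KO_1 library of the second table was below its WT library and the other 3 knockout libraries were above theirs. The log2 difference was 0.38 ± 0.20, with a 95% interval from -0.14 to 0.89 (limma, adjusted p = 0.218). The intervals of GRHL2 (0.94 to 1.54) and GRHL3 (1.68 to 2.39) lie above that of GRHL1, and differences between these genes were not themselves tested.

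OVOL2 was the more abundant of the OVOL genes. OVOL2 was 1.92 and 3.16 FPKM in WT, 6.67 and 9.53 in SNAI1_KO_1 and 6.35 and 11.5 in SNAI1_KO_2. The second table was higher in every group, and within each table the ratio to WT was 3.02 to 3.64. The log2 difference was 1.41 ± 0.11 (limma, adjusted p = 0.000965). OVOL1 had the lowest mean of the 10 genes in WT, and was at 0.532 and 0.929 FPKM in WT, 1.34 and 2.07 in SNAI1_KO_1 and 1.16 and 1.58 in SNAI1_KO_2. Its groups did not overlap, and OVOL1 rose by a difference of 0.55 ± 0.14 on the log2 scale (limma, adjusted p = 0.0366). That call was lost without the table term (adjusted p 0.230), without the filter on low values (0.0921), under quantile normalization (0.0911) and on leaving out any 1 of the 6 libraries (0.0800 to 0.153).

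ELF3 and KLF5 changed least among the genes with a WT level well above 1 FPKM. ELF3 was 4.85 and 5.14 FPKM in WT, 9.24 and 12.1 in SNAI1_KO_1 and 8.25 and 10.5 in SNAI1_KO_2, a difference of 0.87 ± 0.10 on the log2 scale (limma, adjusted p = 0.00317). KLF5 was 8.73 and 8.28 FPKM in WT, 11.6 and 11.9 in SNAI1_KO_1 and 10.5 and 12.5 in SNAI1_KO_2. Every knockout library of KLF5 was above both WT libraries, with ratios to the WT library of the table from 1.20 to 1.51. KLF5 rose by a difference of 0.40 ± 0.095 on the log2 scale (limma, adjusted p = 0.0290). Without the table term the adjusted p of KLF5 was 0.178, without the filter it was 0.0966, and on leaving out any 1 library other than SNAI1_KO_2 of the first table it was 0.0772 to 0.188.

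**Figure D2:**
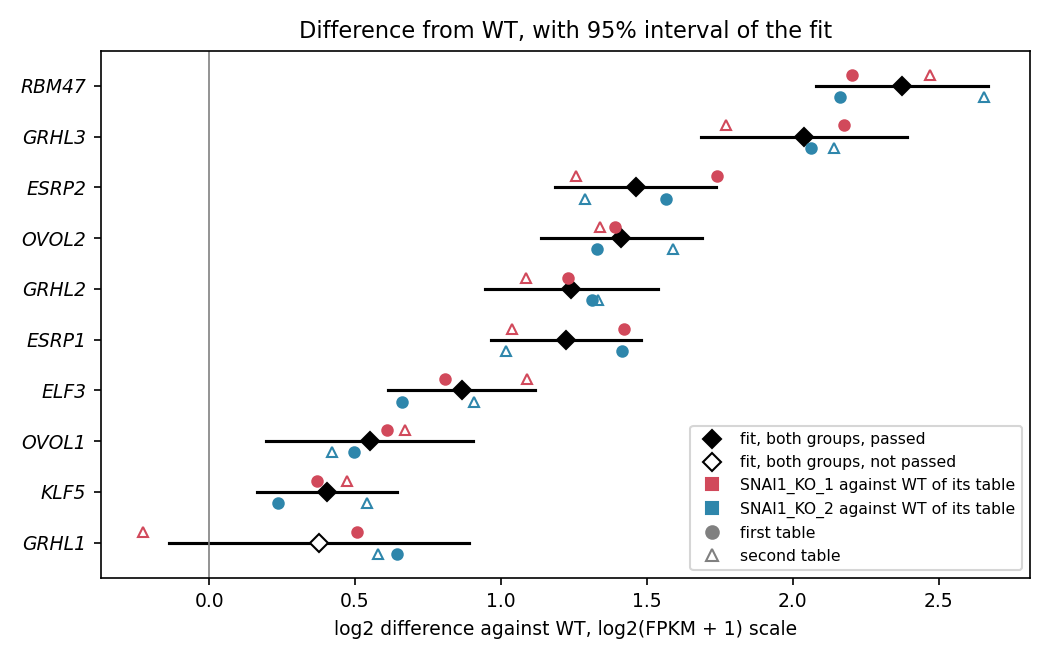
Log2 difference from WT of the 10 genes on the log2(FPKM + 1) scale. Diamonds and bars give the fit of both knockout groups and its 95% interval, and the small symbols give each knockout library against the WT library of its table. The interval of GRHL1 includes 0, and those of the other 9 genes lie above it.

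The order of the changes depended on the scale. By the ratio of mean FPKM, knockout libraries to WT, GRHL3 came first at 7.44, before RBM47 at 6.44. GRHL2 followed at 3.62, OVOL2 at 3.35, ESRP2 at 2.84, ESRP1 at 2.42, OVOL1 at 2.11, ELF3 at 2.00, GRHL1 at 1.65 and KLF5 at 1.36. With a pseudocount of 0.1 in place of 1, the log2 difference was 2.77 for GRHL3 and 2.64 for RBM47, the reverse of the order given above for these genes.

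By level in WT, ESRP1 (mean 16.4 FPKM) stood above ESRP2 (11.3), with libraries that did not overlap. ESRP2 and KLF5 (8.50) overlapped. ELF3 (4.995), RBM47 (3.44), OVOL2 (2.54) and GRHL2 (1.09) followed without overlap of their 2 libraries with the neighbor above. GRHL2, GRHL1, GRHL3 and OVOL1 each overlapped with the next. In the 4 knockout libraries ESRP1 was 39.8 ± 4.2 FPKM (SD, n = 4), ESRP2 32.2 ± 4.9 and RBM47 22.2 ± 3.3, while GRHL1 at 1.57 ± 0.58 and OVOL1 at 1.54 ± 0.39 were the lowest and overlapped. These SDs run over both knockout groups and both tables, so they include the offset between tables and are not a spread among replicates.

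Taking the knockout groups one at a time against the same WT libraries, 9 of the 10 genes rose in SNAI1_KO_1, where 23.9% of all genes passed and 13.0% were higher, and 7 rose in SNAI1_KO_2, where 25.5% passed and 13.5% were higher. These counts share the WT libraries, and a call in only 1 of the groups does not show that the groups differ. KLF5 and OVOL1 passed in SNAI1_KO_1 (adjusted p 0.0471 and 0.0431 by limma) and had adjusted p of 0.0556 and 0.0966 in SNAI1_KO_2. GRHL1 passed in neither group. Without the table term only ESRP1, RBM47, GRHL2 and GRHL3 passed in each knockout group, and ESRP2, OVOL2 and ELF3 did not (adjusted p 0.0593, 0.102 and 0.0717 in SNAI1_KO_1 and 0.0605, 0.0777 and 0.106 in SNAI1_KO_2). Leaving out any 1 library ended the SNAI1_KO_1 calls of OVOL1 (0.0706 to 0.183) and KLF5 (0.0613 to 0.223). Among the other genes, leaving out 1 library ended the call of GRHL2 in SNAI1_KO_1 (adjusted p 0.0510 without its first-table library) and that of ELF3 in SNAI1_KO_1 (0.0566 without its second-table library). It also ended that of ELF3 in SNAI1_KO_2 without its first-table library (0.0580), its second-table library (0.0798) or the second-table WT library (0.0521).

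The knockout groups were then set against each other, SNAI1_KO_2 minus SNAI1_KO_1. No gene passed by limma (0 of 13909), and 521 had an unadjusted p under 0.05, with 0 of the 10 regulators among them. The point estimates were higher in SNAI1_KO_2 for 5 of the 10 genes. GRHL1 had the largest, at 0.47 with a 95% interval from -0.12 to 1.07, and OVOL1 the lowest, at -0.18 with an interval from -0.59 to 0.23. The estimate of ESRP1 was -0.01, its interval running from -0.31 to 0.28. These intervals, and not the absence of calls, give the range of differences that the libraries leave for each gene.

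**Figure D3:**
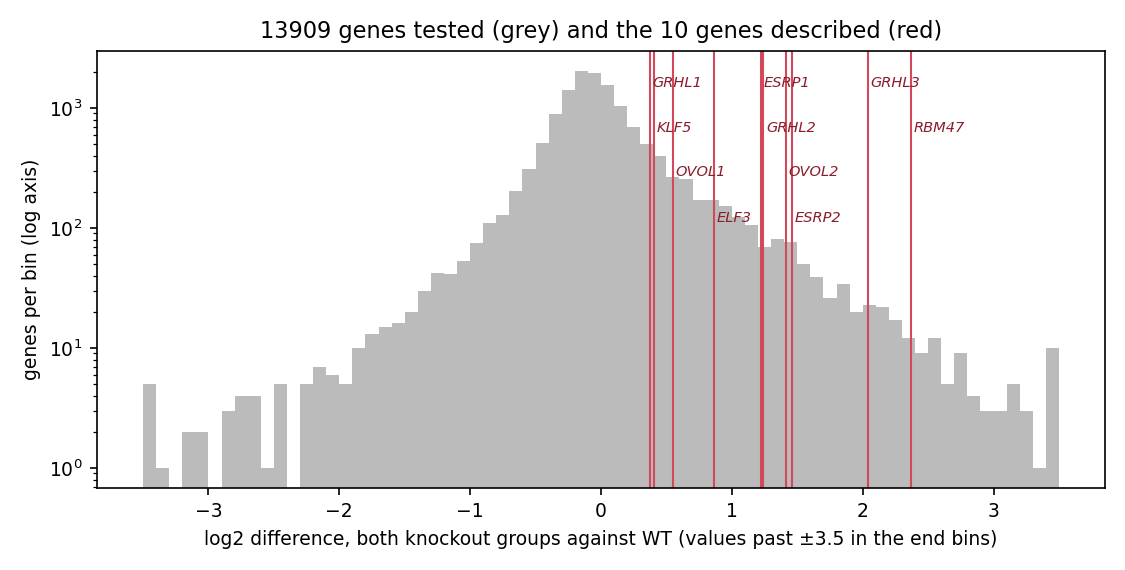
Distribution of the log2 difference, both knockout groups against WT, over the 13909 genes tested (gray, log axis of genes per bin), with the 10 epithelial regulators as red lines. All 10 lie to the right of 0, from 0.38 for GRHL1 to 2.37 for RBM47.

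Relatives of these regulators within their gene families were examined next. Of the 2 grainyhead relatives of the CP2 kind that were tested, 0 rose and 1 fell. TFCP2 was 15.8 and 14.4 FPKM in WT and 12.3 to 16.1 in the knockout libraries, with a difference of -0.08 on the log2 scale (limma, adjusted p = 0.472). UBP1 was 35.7 and 44.2 FPKM in WT and 30.4 to 36.9 in the knockout libraries, a difference of -0.23 on the log2 scale (limma, adjusted p = 0.0370). Its call was lost without the table term (0.504), without the filter (0.0773), under median-ratio scaling (0.0521), without the mean-variance trend (0.0815) and on leaving out any 1 library (0.0800 to 0.216). TFCP2L1, a factor of naive pluripotency, was below the filter, at 0.122 and 0.213 FPKM in WT and 0.584 to 0.995 in the knockout libraries. Of the ETS relatives of ELF3, 0 of the 3 tested passed, and ELF4 came nearest, with a difference of 0.47 on the log2 scale (limma, adjusted p = 0.0516). ELF4 passed with a pseudocount of 0.1 (0.0495), under median-ratio scaling (0.0493) and without the mean-variance trend (0.0285). ELF5, EHF and SPDEF, the epithelial ETS factors, stayed under 0.3 FPKM in every library.

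Among the other KLF genes, 11 were tested, 2 rose and 3 fell, with a median log2 difference of -0.17. KLF1, the erythroid factor of the family, was 3.49 and 3.89 FPKM in WT and 0.203 to 0.581 in the knockout libraries, a difference of -1.82 on the log2 scale (limma, adjusted p = 0.00205). KLF1 passed the filter only through the WT libraries. KLF15 fell by 1.03, and KLF10, a gene induced by TGF-β, rose by 0.86. The call of KLF15 was lost without the filter (adjusted p 0.0726) and without the first-table WT library (0.0912), and the 5 calls of the list became 2 without that library and 3 without the second-table WT library.

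A further list held other RNA-binding proteins, most of them known to act on splicing. Of 16 tested, 2 rose and 6 fell, with a median log2 difference of -0.16. KHDRBS3 was 8.68 and 10.8 FPKM in WT and 16.7 to 24.1 in the knockout libraries, a difference of 0.95 on the log2 scale (limma, adjusted p = 0.00123). RBM38 rose by a log2 difference of 0.49. HNRNPA1, an abundant splicing repressor, fell by 0.24 (limma, adjusted p = 0.00463), and none of the 6 that fell went below -0.27. Without the table term 0 of the 16 were called, with adjusted p of 0.0531 for KHDRBS3, 0.706 for RBM38 and 0.495 for HNRNPA1. The calls of RBM38 and HNRNPA1 were also lost without the second-table WT library (0.0593 and 0.0582), and that of HNRNPA1 without the filter (0.0583) and without the mean-variance trend (0.0666). In all, 2 of the 16 were called without the second-table WT library, 4 without the first-table WT library and 5 without SNAI1_KO_2 of the second table, while 3 were called without the filter and 2 without the mean-variance trend.

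Genes with exons known to be chosen by ESRP proteins were examined at the gene level, as the tables do not resolve isoforms. Of 12 tested, 2 rose and 1 fell, with a median log2 difference of 0.06. FGFR2 was 17.6 and 21.4 FPKM in WT and 8.37 to 11.6 in the knockout libraries, a difference of -0.90 on the log2 scale (limma, adjusted p = 0.00113). MAGI1, a junction scaffold, rose by 1.12. CD44, CTNND1 and ENAH did not pass, at 0.31, 0.12 and 0.05 on the log2 scale (limma, adjusted p = 0.0890, 0.275 and 0.403). Whether the exons used in these transcripts changed was not measured.

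Epithelial effector genes of adhesion, junctions, keratins and surface proteases rose beside the regulators. Of 40 listed, 38 were found and 35 tested, of which 34 rose and 0 fell, with a median log2 difference of 1.36. This list was also chosen with earlier results of these data known, so its counts are descriptions. The 34 calls became 23 without the table term, 29 without the filter and 22 when a log2 difference of at least 1 was also required. CLDN4, a tight junction claudin and a known target of GRHL2, was 1.72 and 2.34 FPKM in WT and 26.6 to 47.0 in the knockout libraries, a difference of 3.54 on the log2 scale (limma, adjusted p = 0.000180). CLDN3 and PPL rose by 3.03 and 2.43. With WT means of 0.439, 0.878 and 0.654 FPKM, CLDN3, TJP3 and BSPRY passed the filter through the knockout libraries. Of 9 other surface-epithelial transcription factors tested, 5 rose and 1 fell, and the 6 calls became 2 without the first-table WT library, 3 without the second-table one, 2 without the table term and 2 without the filter. FOXA1, 1 of the 5 that rose, had a WT mean of 0.661 FPKM and passed the filter through the knockout libraries. TFAP2A was 3.22 and 5.36 FPKM in WT and 14.3 to 24.1 in the knockout libraries, a difference of 1.82 on the log2 scale (limma, adjusted p = 0.000584). CDX2 rose by 1.97 (adjusted p 0.0681 without the first-table WT library and 0.0650 without the filter), and GATA3 fell by 0.87 (0.234 without the table term). TP63 and TFAP2B, defining factors of stratified epithelium and neural crest, stayed under 0.12 FPKM in every library.

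**Figure D4:**
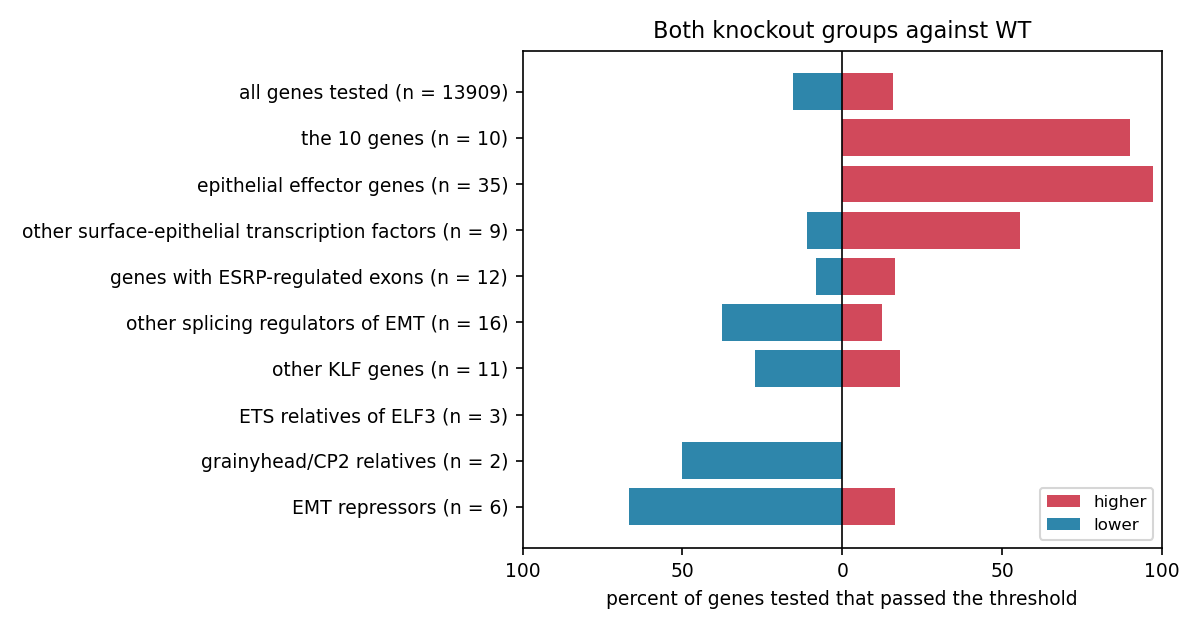
Percent of the genes tested in each list that were called higher (red, right) or lower (blue, left) for both knockout groups against WT, with the number tested in parentheses. Of all genes, 15.8% were higher and 15.4% lower, against 9 of the 10 epithelial regulators and 34 of 35 epithelial effector genes higher. The lists were chosen with earlier results of these data known, so the shares are descriptions.

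The EMT repressors known to act against several of these regulators were lower in each knockout library than in the WT library of its table, apart from SNAI1 and SNAI3. Of 6 tested, 4 fell and 1, SNAI1, rose by 0.58 ± 0.074 (adjusted p 0.00461 by limma). ZEB1, which represses ESRP1, GRHL2 and OVOL genes in other systems, was 2.02 and 2.88 FPKM in WT and 0.178 to 1.10 in the knockout libraries, a difference of -1.15 on the log2 scale (limma, adjusted p = 0.00661). Its mean was 0.545 FPKM in SNAI1_KO_1 and 0.654 in SNAI1_KO_2, so it passed the filter through the WT libraries. ZEB2 was 12.0 and 9.98 FPKM in WT and 3.10 to 5.79 in the knockout libraries, a difference of -1.16 on the log2 scale (limma, adjusted p = 0.00298). TWIST1 and SNAI2 fell by 0.86 and 0.55. TWIST2 did not pass (-0.50, limma, adjusted p = 0.0590), and SNAI3, below the filter, was 0.143 and 0.280 FPKM in WT and 0.486 to 1.65 in the knockout libraries. Without the table term 0 of the 6 were called, with adjusted p of 0.0761 for SNAI1, 0.114 for ZEB1, 0.0782 for ZEB2, 0.499 for TWIST1 and 0.215 for SNAI2. Leaving out 1 library ended the call of ZEB1 (0.0625 without the first-table WT library) and TWIST1 (0.0571 without the second-table one). It also ended that of SNAI2 (0.192 and 0.0925 without either WT library and 0.0839 without SNAI1_KO_2 of the second table), which was lost as well without the filter (0.128) and without the mean-variance trend (0.0516).

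Markers of other cell types were measured beside these results. Of 7 pluripotency markers, 2 rose (POU5F1 and NANOG) and 0 fell, and their FPKM summed to 1150 and 1201 in WT and to between 1364 and 1562 in the knockout libraries. Of 9 amnion and surface ectoderm markers, 4 were tested, 2 rose and 1 fell, and the sum was 36.3 and 57.3 in WT and 38.0 to 65.5 in the knockout libraries, so the groups overlapped. GATA3, which fell, made up the largest share of this sum in WT. TFAP2A rose, as given above, and GABRP rose from 0.0415 and 0.149 FPKM in WT to 1.03 to 2.34 in the knockout libraries (limma, adjusted p = 0.0171). GABRP passed the filter only through the knockout libraries. KRT7, below the filter, was 0.334 and 0.334 FPKM in WT and 0.832 to 1.18 in the knockout libraries. ISL1, also below the filter, went the other way, at 1.82 and 1.04 FPKM in WT and 0.187 to 0.597 in the knockout libraries. TFAP2C did not pass, at 7.55 and 12.7 FPKM in WT and 7.09 to 13.9 in the knockout libraries. TP63 and VTCN1 stayed under 0.13 FPKM in every library. Of 8 mesoderm markers found and tested, 1 rose and 5 fell. The gene that rose was T (brachyury), at 17.8 and 38.7 FPKM in WT and 130 to 251 in the knockout libraries, a log2 difference of 2.72 that was larger than that of any of the 10 regulators (limma, adjusted p = 0.000142). The sum of the list was 1624 and 1560 in WT and 1069 to 1149 in the knockout libraries. Of 6 endoderm markers, 2 rose and 3 fell, with a sum of 3342 and 2832 in WT and 1272 to 1926 in the knockout libraries, most of which was CER1 (3262 and 2550 in WT). FOXA1, 1 of the 2 that rose, had a WT mean of 0.661 FPKM and passed the filter through the knockout libraries. The same call of FOXA1 is counted above among the surface-epithelial transcription factors. Of the trophoblast markers 2 were tested, of which 1 rose and 1 fell, and they summed to 35.3 and 47.5 in WT and 34.4 to 56.0 in the knockout libraries, with CGB3 listed at 0 in every library. Neural ectoderm markers, of which 1 was tested and 0 passed, summed to 81.5 and 96.1 in WT against 50.5 to 74.2, nearly all of it OTX2 (79.6 and 93.2 in WT). Markers of endothelium and blood, of which 2 were tested, 0 rose and 1 fell, summed to 67.4 and 57.7 in WT against 41.6 to 48.1, mostly KDR (62.9 and 53.8 in WT), with PTPRC listed at 0 in every library. The part of these cell types in the levels of the epithelial regulators was not tested.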

How the data were processed

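RNA-seq values of 6 libraries were analysed. The authors deposited FPKM in 2 tables of 38100 and 58324 gene rows, each with 1 library of every group. The second table names the unit in 1 stray line, which was dropped, and the first does not name it and was taken as FPKM from its values. The submitters' processing notes name hg19, BWA, Bowtie and RSEM, without roles or versions, and the annotation is not given in the sources used here. Other per-sample columns numbered 0. Columns show the group but no replicate number.

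Repeated symbols (94 in the first table, 340 in the second) were dropped. Genes whose FPKM averaged 1 or more across the 6 libraries were tested on log2(FPKM + 1) with limma 3.58.1 in R 4.3.3 (lmFit, contrasts.fit and eBayes with trend, 3 group means and a table term, two-sided, Benjamini-Hochberg over 13909 genes, threshold 0.05). The tables were normalized separately, so libraries were compared within a table. The table term pairs the libraries. Differences between tables correlated among groups with r = 0.616 to 0.676 across genes, which are not independent replicates. The fit was tested on 10 simulated draws at the same threshold. For both knockout groups against WT, changes of 1 and 2 on the log2 scale were recovered in 89.7% and 99% of genes. Of the calls, 8.57% were false there and 8.29% between the knockout groups, both above the threshold. Each draw changed 100 genes by 1 and 100 by 2, far fewer than the 4348 genes called in the data. The share of false calls depends on that number, so these values are not the error rate of the reported calls. With no gene changed, at most 6 genes were called.

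The 10 genes and all lists were chosen with earlier results of these data known. All 10 genes, the SNAI1, ZEB and TWIST repressors, and the 3 genes of each list with the smallest p are named, with relatives of the 10 genes and genes with ESRP-regulated exons where they bear on a result. The values of 1 gene that this rule names are not reported here. Marker genes named beside the sums, TP63 and TFAP2B were chosen after their values were seen. FPKM keeps no read totals, so no counting interval is given, and count-based tests were not run.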

Additional observations from a re-analysis of the deposited data

How the results depend on the processing

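Among the 10 epithelial regulators, 434 alternative values were computed. In 380 both the sign and the call were as reported, 49 lost a call, 2 gained one and 3 changed sign. The sign changes were all of GRHL1 in SNAI1_KO_1, which had not passed: -0.055 under quantile normalization and -0.21 to 0.49 over the fits that each left out 1 library. TFCP2 ran from -0.17 to 0.0043 and CTNND1 from -0.016 to 0.26 on leaving out 1 library, and neither had passed. Without the table term, 4 of the 10 regulators passed in SNAI1_KO_1 and 4 in SNAI1_KO_2, against 9 and 7, and 7 for both groups. Over all genes 576, 698 and 1065 were then called for SNAI1_KO_1, SNAI1_KO_2 and both. Without the filter on low values these counts were 1008, 1216 and 2139. When genes also had to differ by 1 or more on the log2 scale, they were 950, 1054 and 998. On leaving out 1 library they ran from 1085 to 2484, from 1219 to 2810 and from 1831 to 2920. Leaving out 1 library leaves 1 group with a lone library, which is assumed to vary like the others. Apart from that limit and the fewer libraries, the cause was not tested. The counts stayed within 1.5 times the reported ones under the pseudocounts of 0.1 and 10, quantile normalization, a filter at a mean of 5 FPKM, scaling by median ratios and no mean-variance trend. Between the knockout groups 0 genes passed under every alternative, with 81 to 1313 at an unadjusted p under 0.05. Recomputing the list counts, the named list genes and the single regulators within each knockout group was added after seeing the data. Genes near 1 FPKM have unknown counting error.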
